A study of Homo sapiens with 18 samples.

Results

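MUCL1, SRGN, LCP1, BIN2, NPY1R, FGG, CP and IGFBP3 were chosen by measured values: on a quantile-normalized scale, they are among the named genes whose RNA levels lay furthest apart between 3 breast cancer cell lines in the arrays given a control antisense oligonucleotide (ASO). They are 8 of 14884 genes with a named feature, on an array with 53617 features. Each has exactly 1 feature (a set of probes for one transcript cluster), and all 8 passed the filter on low values; SRGN passed it through the MDA-MB-231 arrays alone, so that a difference was a condition of its passing. CP exceeded the median feature in 3 of the 6 groups, MUCL1 and NPY1R in 4, and the other genes in all 6. Because the line differences of the control arrays chose the genes, those differences are described here with no test.

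The 18 arrays (Affymetrix Human Gene ST) fell into 6 groups of 3. SKBR3, an established HER2-positive line, received either a control ASO or one targeting the long non-coding RNA (lncRNA) LINC01269. The established triple-negative lines MDA-MB-231 and MDA-MB-468 received either a control ASO or one targeting the lncRNA AL078604.2. Each ASO was a GapmeR, a design that lets RNase H cut the RNA it pairs with, and all 6 groups, controls included, were transfected at 15 nM for 48 h with the TransIT-BrCa reagent. Per the series' design text, the purpose was to learn how loss of each long non-coding RNA alters expression. Neither target has a named feature, so the knockdown was not analysed here. The labels do not say that the 3 arrays of a group came from separate cultures. If the arrays did not, p-values measure only the spread between these samples. Each line is a single line of its subtype, and the ASO given to SKBR3 differs from that given to the other lines.

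The 8 genes encode proteins of different kinds. MUCL1, FGG, CP and IGFBP3 encode secreted proteins: a small mucin-like glycoprotein of breast and skin gland epithelium, the gamma chain of fibrinogen, the copper-carrying plasma ferroxidase ceruloplasmin, and the main carrier of insulin-like growth factors in blood. NPY1R encodes a G protein-coupled receptor for neuropeptide Y that is often found in breast tumours. SRGN, LCP1 and BIN2 are best known from blood cells, where SRGN encodes serglycin, the proteoglycan core protein of secretory granules, LCP1 encodes the actin-bundling protein L-plastin, and BIN2 encodes a BAR domain protein that binds curved membranes; LCP1 is also made by many epithelial tumour lines.

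Replicate arrays correlated at 0.985 to 0.987 in SKBR3, 0.989 to 0.992 in MDA-MB-231 and 0.986 to 0.991 in MDA-MB-468. Array medians differed between the lines (4.56 to 4.63, 5.41 to 5.43 and 5.21 to 5.24 log2 as deposited), so that levels were compared between lines only after quantile normalization of all 18 arrays or as a percentile of all features of an array. Line markers ran partly against the labels. EPCAM, known to be low in MDA-MB-231, stood at the 98.9, 99.2 and 99.3 percentile in control arrays labelled SKBR3, MDA-MB-231 and MDA-MB-468. The mean of 8 named mesenchymal-like markers per control array was 6.42 to 6.51, 6.34 to 6.46 and 6.03 to 6.25 in the same order. The 4 named genes of the HER2 amplicon were all highest in control arrays labelled MDA-MB-231, with ranges between lines of at most 0.85 log2. The 3 named basal markers were each highest under a different label (KRT5 under MDA-MB-468 at a mean of 7.84 log2, KRT14 under MDA-MB-231 at 8.34 and EGFR under SKBR3 at 11.44). Every direction given here is therefore between arrays labelled with a line's name.

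RefSeq's promoter table (GRCh38.p14) held 5 of the 8 genes: MUCL1, LCP1, NPY1R, FGG and IGFBP3. Those of MUCL1, LCP1 and NPY1R are shown, 250 bases before the transcription start, because these genes shared the order of the lines, highest in MDA-MB-231 and lowest in SKBR3. Capitals mark every match, on either strand, to one of 5 motifs: TATAAA, the usual core promoter box; TATATA, a close variant; AGGAAG, which ETS factors bind; CACGTG, the E-box; and TGANTCA, the AP-1 site. No match overlaps another in these windows. The MUCL1 window lies at chr12:54854266-54854515 on the plus strand, the LCP1 window at chr13:46182178-46182427 on the minus strand and the NPY1R window at chr4:163332597-163332846 on the minus strand.
MUCL1: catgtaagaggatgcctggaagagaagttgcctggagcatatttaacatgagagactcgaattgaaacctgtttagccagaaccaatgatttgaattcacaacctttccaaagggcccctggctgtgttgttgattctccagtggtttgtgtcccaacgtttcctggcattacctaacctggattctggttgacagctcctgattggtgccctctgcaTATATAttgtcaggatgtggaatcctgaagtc
LCP1: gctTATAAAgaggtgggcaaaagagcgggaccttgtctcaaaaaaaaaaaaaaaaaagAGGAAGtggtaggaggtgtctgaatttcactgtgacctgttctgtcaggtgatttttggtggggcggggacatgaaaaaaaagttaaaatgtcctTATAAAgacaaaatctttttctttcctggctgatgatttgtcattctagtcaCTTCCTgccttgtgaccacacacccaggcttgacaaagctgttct
NPY1R: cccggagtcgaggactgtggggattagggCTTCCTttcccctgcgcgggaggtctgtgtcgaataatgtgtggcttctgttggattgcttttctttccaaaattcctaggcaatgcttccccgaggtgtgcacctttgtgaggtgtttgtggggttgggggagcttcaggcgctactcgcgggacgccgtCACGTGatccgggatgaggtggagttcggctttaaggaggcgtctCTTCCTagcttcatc

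No motif was found in all 3 windows. MUCL1 had TATATA 32 bases before its start, which 3.73% of the 35116 promoter windows of the same length hold. LCP1 had TATAAA at 247 and 97 bases before its start (10.7% of windows hold it) and AGGAAG at 192 bases on the gene's strand and 45 bases on the opposite strand (28.7% of windows). NPY1R had AGGAAG on the opposite strand at 221 and 15 bases, and CACGTG at 60 bases (6.34% of windows). IGFBP3, whose order of lines differed, also had TATATA, 30 bases before its start, and FGG matched none of the 5. TGANTCA, present in 6.57% of windows, was in none of the 5 genes' windows. None of the arrays measures binding at these sites, and a match or its absence describes only the letters.

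MUCL1 varied more between lines than any other named feature in the control arrays. Its quantile-normalized log2 levels were 5.03, 5.02 and 4.80 in SKBR3, 8.95, 9.23 and 9.15 in MDA-MB-231, and 6.38, 6.52 and 6.27 in MDA-MB-468. The lines did not overlap, and the highest group mean was 17.8-fold above the lowest. As a share of the features on an array, MUCL1 ranked near the middle in SKBR3 (47.6 percentile) and near the top in MDA-MB-231 (93.2), with MDA-MB-468 between them (71.7).

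FGG ran the other way, with its highest level in SKBR3. Control levels were 8.45, 8.29 and 8.27 in SKBR3, 6.79, 6.90 and 6.78 in MDA-MB-231, and 5.55, 5.87 and 5.47 in MDA-MB-468. All 3 lines were separate, and the SKBR3 mean was 6.52-fold above that of MDA-MB-468. It was the only one of the 8 genes highest in SKBR3.

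CP and IGFBP3 were both highest in MDA-MB-468. CP measured 7.49, 7.34 and 7.76 there, against 5.00, 5.31 and 4.94 in SKBR3 and 5.09, 5.02 and 5.07 in MDA-MB-231. The lower pair of lines overlapped, and MDA-MB-468 was 5.54-fold above the lower of their means. CP lay near the median feature in SKBR3 (50.1 percentile) and MDA-MB-231 (49.7), so this difference rests on a low signal there. IGFBP3 measured 8.31, 8.84 and 9.53 in MDA-MB-468, 6.86, 7.17 and 6.83 in SKBR3, and 6.65, 6.63 and 6.63 in MDA-MB-231. Its MDA-MB-468 arrays spread the most of any control group of the 8 genes (SD 0.61 log2, n = 3), yet the lowest of them lay 1.14 log2 above the highest SKBR3 array. SKBR3 and MDA-MB-231 did not overlap for IGFBP3, but only 0.19 log2 separated their nearest arrays. IGFBP3 was also the smallest difference of the 8, at 4.78-fold from highest to lowest mean.

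NPY1R, the receptor, was low in SKBR3 and high in both other lines. Control levels were 3.70, 3.77 and 3.88 in SKBR3, 6.18, 6.30 and 6.23 in MDA-MB-231, and 5.89, 5.82 and 5.86 in MDA-MB-468. The arrays of MDA-MB-231 and MDA-MB-468 were close but separate, by 0.29 log2, while SKBR3 lay 1.94 log2 below the nearest of them. In SKBR3 its mean was at the 26.4 percentile of all features, below the median, so the 5.47-fold difference between MDA-MB-231 and SKBR3 rests on a low signal in SKBR3.

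The genes best known from blood cells were all highest in MDA-MB-231. SRGN measured 6.78, 6.76 and 6.48 there, 4.64, 4.28 and 4.53 in SKBR3, and 4.10, 4.44 and 4.20 in MDA-MB-468. SKBR3 and MDA-MB-468 overlapped for SRGN, both below the median feature (38.5 and 34.2 percentile), and the highest mean was 5.37-fold above the lowest. LCP1 measured 8.16, 8.14 and 7.94 in MDA-MB-231, 6.59, 7.15 and 6.55 in MDA-MB-468, and 5.52, 5.41 and 5.46 in SKBR3. BIN2 measured 8.96, 8.88 and 8.73, then 7.94, 7.73 and 7.84, then 6.38, 6.21 and 6.25 in the same order of lines. For LCP1 and BIN2 the 3 lines were separate, with 6.12-fold and 5.95-fold between the extremes.

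Markers of other cell types moved in part with these genes. Of 18 leukocyte markers 10 had a named feature, 7 of them highest in MDA-MB-231, where the list's mean level per control array was 5.20 to 5.30, against 4.91 to 4.96 in SKBR3 and 4.89 to 4.95 in MDA-MB-468. The lysosomal macrophage marker CD68 was the highest of them in MDA-MB-231 (7.62, against 6.95 in SKBR3 and 6.16 in MDA-MB-468), 5 of the 10 lay below the median feature in all lines, and the defining markers PTPRC and CD3E were not analysed here. Beside FGG, 5 of 9 named hepatocyte markers were highest in SKBR3, with a list mean of 4.82 to 4.89 per control array against 4.44 to 4.47 in MDA-MB-231 and 4.63 to 4.67 in MDA-MB-468; ALB, the albumin gene, was below the median feature in all lines (42.8, 28.2 and 34.2 percentile). Each array is labelled as a single breast cancer cell line. The part of other cells in the levels of the 8 genes was not tested. In bulk RNA, fewer cells of a type and less RNA per cell cannot be told apart. The 9 named epithelial markers had median percentiles of 96.6, 97.2 and 97.0 in SKBR3, MDA-MB-231 and MDA-MB-468.

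**Figure D1:**
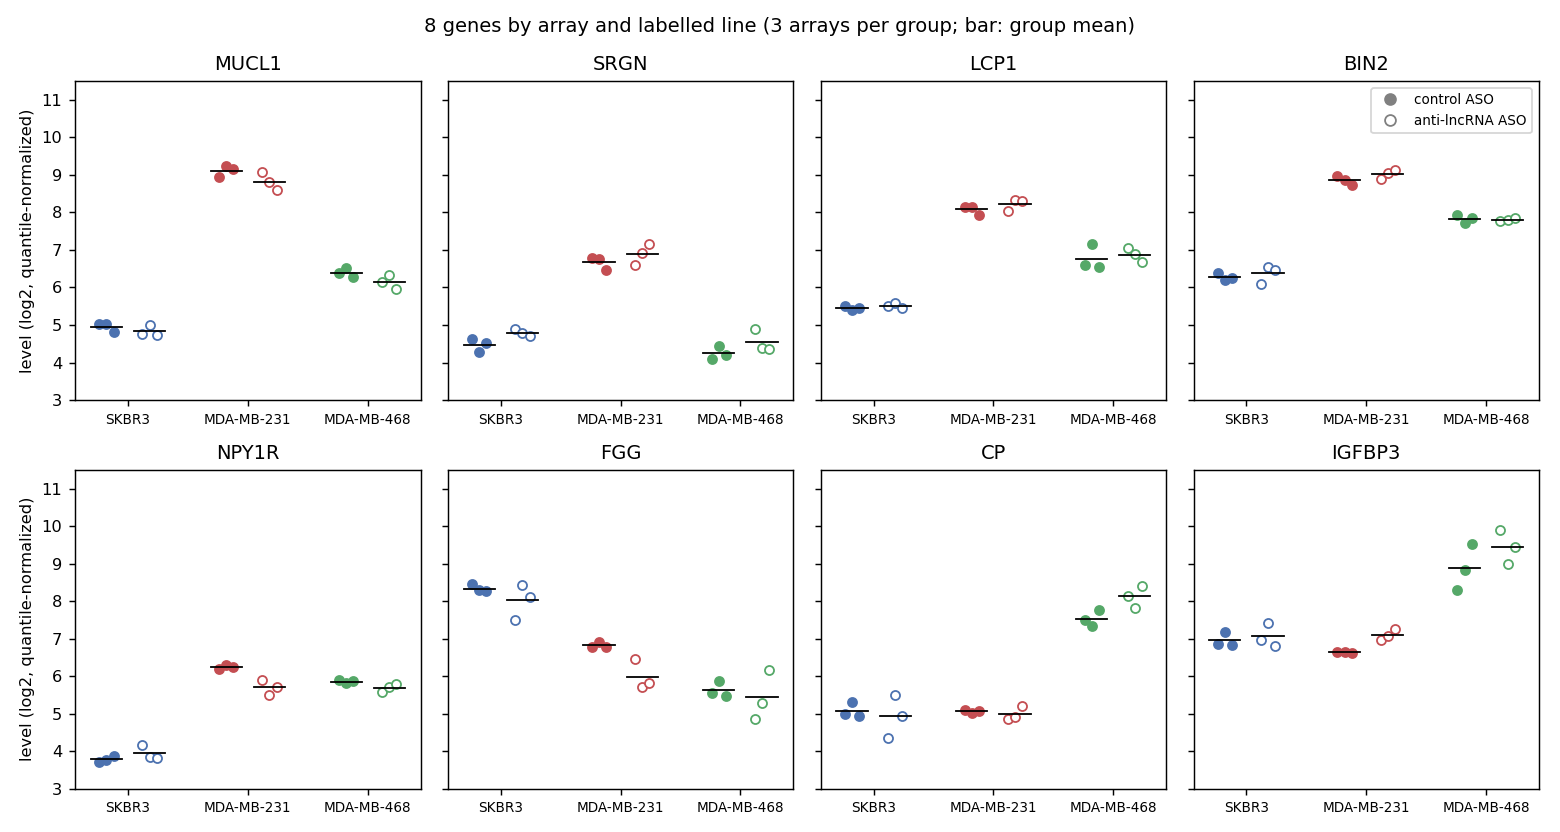
Level of each of the 8 genes in every array (y axis, quantile-normalized log2; x axis, labelled line), with filled points for control ASO arrays, open points for anti-lncRNA ASO arrays and a bar for the mean of 3 arrays. MUCL1, SRGN, LCP1 and BIN2 stand highest in MDA-MB-231, FGG in SKBR3 and CP and IGFBP3 in MDA-MB-468 in both kinds of array.

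The choice of genes follows a ranking that has no gap at its lower end. The 8 genes span ranges between line means of 2.26 log2 (IGFBP3) to 4.16 log2 (MUCL1) in the control arrays, against a median of 0.35 log2 over all named features. Just inside were IGFBP3 (2.26) and SRGN (2.42), and just outside were the ribosomal protein gene RPL41 (2.25), the pseudogene FMO6P (2.22) and the zinc finger gene ZNF749 (2.20). Another 5 named features outside the 8 had ranges at least as large as that of IGFBP3, 3 of them microRNA genes. In all, 22 named features (0.137%) had a range of 2 log2 or more.

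The arrays given an anti-lncRNA ASO were not used to choose the genes and so allow a test of the line differences. MDA-MB-231 and MDA-MB-468 received the same ASO, so their comparison does not mix line with ASO. SRGN is left out of the counts that follow, because it passed the filter only through MDA-MB-231; its values are a description with no test wherever that line is compared. Of the other 7 genes, 5 differed by limma's moderated test at an adjusted p (Benjamini-Hochberg over 29855 features) under 0.05, against 30.7% of all features tested, and 3 of the 7 differed by 2 log2 or more, against 0.0804% of features. The arrays of both lines did not overlap for 5 of the 7, against 42.1% of features. CP is in these counts and in those with SKBR3 below. Outside MDA-MB-468 its mean percentile was 50.1 or lower in every group, so its passing the filter rested almost wholly on MDA-MB-468. Its calls against that line are therefore to be read as a description, also where they enter these counts.

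MUCL1 was 6.37-fold higher in MDA-MB-231 than in MDA-MB-468 in these arrays. Its levels were 9.06, 8.81 and 8.59 in MDA-MB-231 and 6.15, 6.34 and 5.95 in MDA-MB-468, a difference of 2.67 ± 0.13 log2 (SE, n = 3 arrays each, limma adjusted p = 5.62e-09). SRGN measured 6.59, 6.92 and 7.15 against 4.91, 4.39 and 4.36, with means 2.34 log2 apart and the MDA-MB-468 signal below the median feature (39.8 percentile). Every MDA-MB-231 array lay above every MDA-MB-468 array for both genes. LCP1 was 2.56-fold higher in MDA-MB-231 (8.05, 8.32 and 8.31 against 7.05, 6.90 and 6.67, limma adjusted p = 4.37e-06). BIN2 was 2.32-fold higher (8.88, 9.05 and 9.13 against 7.77, 7.80 and 7.85, limma adjusted p = 1.37e-06). The groups were again apart for LCP1 and BIN2.

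CP and IGFBP3 differed in the opposite direction. CP was 8.78-fold lower in MDA-MB-231 (4.85, 4.92 and 5.20) than in MDA-MB-468 (8.15, 7.82 and 8.41). Its means lay 3.13 log2 apart (n = 3 each), given as a description with no test. IGFBP3 was 5.06-fold lower (6.98, 7.08 and 7.25 against 9.90, 8.98 and 9.44, limma adjusted p = 6.34e-06). No array of one line reached those of the other for either gene. CP lay below the median feature in MDA-MB-231 (48.3 percentile), so its fold difference rests on a low signal there.

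FGG and NPY1R, both separate between these lines in the control arrays, overlapped in the anti-AL078604.2 arrays. NPY1R measured 5.89, 5.51 and 5.72 in MDA-MB-231 and 5.57, 5.71 and 5.78 in MDA-MB-468. The NPY1R difference was 0.02 log2 with a 95% interval from -0.23 to 0.28 (limma adjusted p = 0.913). FGG measured 6.45, 5.70 and 5.83 in MDA-MB-231 and 4.86, 5.29 and 6.15 in MDA-MB-468. Its difference was 0.56 log2, with an interval from -0.02 to 1.14 (limma adjusted p = 0.138), and 1 array, the third of MDA-MB-468, lay inside the MDA-MB-231 range. Without that array the FGG difference was 0.92 log2 and passed the threshold (limma adjusted p = 0.0118).

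In the comparisons with SKBR3, line and ASO cannot be told apart, because SKBR3 received the anti-LINC01269 ASO. Against MDA-MB-231, 5 of the 7 genes other than SRGN passed the threshold (33.2% of all features) and 4 differed by 2 log2 or more (0.178% of features), and arrays did not overlap for 5 of the 7 (43.2% of features). MUCL1 was 15.8-fold lower in SKBR3 (4.76, 5.01 and 4.74, limma adjusted p = 8.77e-12), LCP1 6.57-fold lower (5.50, 5.58 and 5.45, limma adjusted p = 2.53e-09), BIN2 6.25-fold lower (6.09, 6.56 and 6.48, limma adjusted p = 1.34e-10). NPY1R was 3.39-fold lower (4.18, 3.85 and 3.81, limma adjusted p = 5.62e-08). MUCL1 and NPY1R lay below the median feature in SKBR3 (45.3 and 29.0 percentile), so these fold differences rest on a low signal there. They passed the filter through MDA-MB-231 and MDA-MB-468, the lines where they are high, though through neither line alone. SRGN measured 4.89, 4.80 and 4.70 in SKBR3, below the median feature (44.4 percentile) and below every MDA-MB-231 array. FGG was 4.07-fold higher in SKBR3 (7.51, 8.43 and 8.12, limma adjusted p = 4.12e-05). CP (4.36, 5.49 and 4.94 in SKBR3) and IGFBP3 (6.95, 7.42 and 6.82) overlapped with MDA-MB-231. Their intervals ran from -0.52 to 0.40 log2 and from -0.57 to 0.49 log2.

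Against MDA-MB-468, all 7 genes other than SRGN passed (38.2% of all features), 3 by 2 log2 or more (0.154% of features), and arrays did not overlap for any of the 7 (44.6% of features). CP, counted here but given as a description, was 9.15-fold lower in SKBR3, where it lay below the median feature (47.1 percentile). IGFBP3 was 5.20-fold lower in SKBR3 (limma adjusted p = 2.8e-06) and FGG 5.99-fold higher (limma adjusted p = 2.87e-06). NPY1R was 3.34-fold lower in SKBR3, BIN2 2.70-fold, LCP1 2.57-fold and MUCL1 2.48-fold, with limma adjusted p between 3.67e-08 and 2.07e-06. The limit given above for MUCL1 and NPY1R in SKBR3 holds here too. SRGN, below the median feature in both of these lines, had a difference of 0.24 log2 and an interval from -0.11 to 0.60 (limma adjusted p = 0.272).

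**Figure D2:**
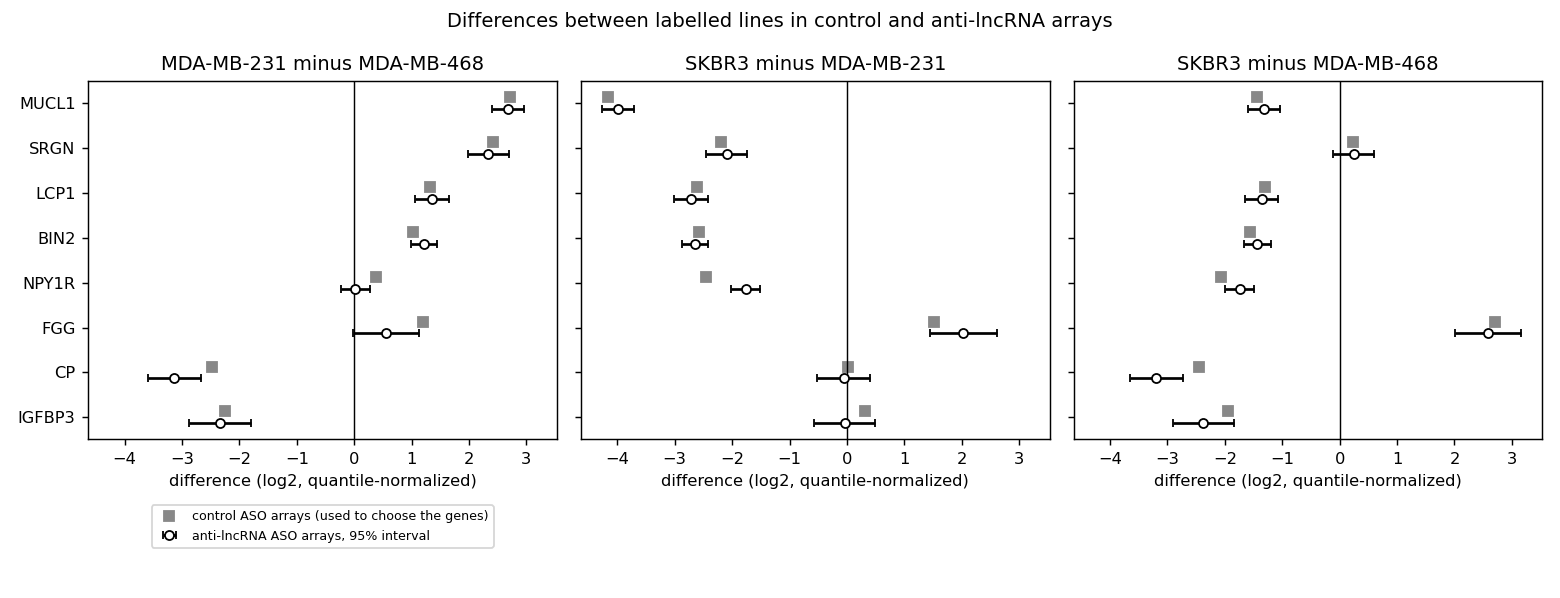
Differences between labelled lines for each gene (x axis, quantile-normalized log2; 1 panel for each pair of lines), with grey squares for the control ASO arrays that chose the genes and open circles with 95% intervals for the anti-lncRNA ASO arrays. SRGN is shown as a description in the panels with MDA-MB-231, and CP in those with MDA-MB-468. The circles of NPY1R and FGG in the MDA-MB-231 minus MDA-MB-468 panel sit nearer to 0 than their squares.

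Whether an ASO moved the genes was tested within each line on the deposited log2 values. None of the 8 passed the threshold in any line or in the difference between the responses of MDA-MB-231 and MDA-MB-468 by limma's test. The background was low too: 0 of 29855 features passed in SKBR3 (0%), 51 in MDA-MB-231 (0.171%), 2 in MDA-MB-468 (0.0067%) and 0 for the difference of responses (0%). At an unadjusted limma p under 0.05 the members' counts were 0 of 8 in SKBR3 (9.16% of features), 3 of 8 in MDA-MB-231 (9.35%), 2 of 8 in MDA-MB-468 (10.5%) and 0 of 8 for the difference of responses (4.16%). Arrays did not overlap for 1, 3 and 2 of the 8 genes, against 11.5%, 17.2% and 16.9% of features in SKBR3, MDA-MB-231 and MDA-MB-468. Differences reached 0.5 log2 in size for 0, 2 and 2 of the 8, against 2.97%, 2.45% and 2.24% of features. The median size of the difference, without regard to sign, was 0.13, 0.26 and 0.21 log2 for the 8 genes and 0.10, 0.10 and 0.10 log2 for all features. These comparisons share the control arrays on which the genes were chosen, so that they are not independent of the choice.

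NPY1R had the smallest p of the 8, in MDA-MB-231. Its deposited values were 6.48, 6.60 and 6.54 with the control ASO and 6.21, 5.86 and 6.04 with the anti-AL078604.2 ASO. All treated arrays lay below all control arrays, by 0.50 ± 0.12 log2 on average (SE, n = 3 each; 1.42-fold lower), with an unadjusted limma p of 0.000894 and an adjusted p of 0.119. In MDA-MB-468 the values were 6.01, 5.94 and 5.99 against 5.72, 5.84 and 5.91, which did not overlap either, but the mean difference was -0.16 log2 with an interval from -0.42 to 0.10 (limma adjusted p = 0.711). In SKBR3, given the other ASO, they were 3.16, 3.20 and 3.34 against 3.67, 3.27 and 3.25, and overlapped. The difference between the responses of MDA-MB-231 and MDA-MB-468 was -0.34 log2, with an interval from -0.72 to 0.03 (limma adjusted p = 0.998). The NPY1R call depended on 1 array. Without the first anti-AL078604.2 array of MDA-MB-231 the difference was -0.59 log2 and passed the threshold. Its limma adjusted p was then 0.0386, the lowest of an omission range that reached 0.492. The same omission raised the features called in MDA-MB-231 from 51 to 535, so the change was not particular to NPY1R.

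FGG also lay lower with the anti-AL078604.2 ASO in MDA-MB-231. Control arrays measured 7.08, 7.20 and 7.07 and treated arrays 6.77, 6.04 and 6.15. The groups did not overlap, and the treated mean was 1.74-fold lower (-0.80 ± 0.27 log2, n = 3 each), but the limma adjusted p was 0.29. In MDA-MB-468 FGG measured 5.69, 5.99 and 5.60 in control arrays and 5.02, 5.43 and 6.27 in treated arrays, whose spread (SD 0.64 log2) took in all the controls. In SKBR3 it measured 7.98, 7.84 and 7.79 against 7.04, 7.98 and 7.67 with the anti-LINC01269 ASO, where 1 treated array lay well below the other 5. The intervals ran from -0.75 to 0.39 log2 in MDA-MB-468 and from -0.87 to 0.27 log2 in SKBR3. The difference between the responses of MDA-MB-231 and MDA-MB-468 was -0.61 log2, with an interval from -1.42 to 0.19 (limma adjusted p = 0.998).

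CP and IGFBP3, high in MDA-MB-468, both had higher means there with the ASO. CP measured 7.63, 7.48 and 7.89 in control arrays and 8.27, 7.94 and 8.56 in treated arrays. The CP arrays did not overlap and differed by 0.59 log2 (1.51-fold, interval from 0.13 to 1.06, limma adjusted p = 0.35). IGFBP3 measured 8.46, 8.99 and 9.69 in control arrays and 10.06, 9.14 and 9.61 in treated arrays, which overlapped, with a mean difference of 0.56 log2 (interval from 0.02 to 1.10, limma adjusted p = 0.459). In MDA-MB-231 the CP arrays overlapped, at 5.42, 5.35 and 5.41 against 5.19, 5.28 and 5.53. IGFBP3 in MDA-MB-231 had control arrays at 6.93, 6.92 and 6.92 and treated arrays at 7.29, 7.37 and 7.56. These did not overlap, with a difference of 0.48 log2 and an interval from -0.06 to 1.02 (limma adjusted p = 0.61). The spread in this test was pooled over all 6 groups. Under the alternatives, only the groups compared included, the limma adjusted p was 0.132 at the lowest. The difference between lines in response was -0.65 log2 for CP (interval from -1.31 to 0.01, limma adjusted p = 0.998) and -0.08 log2 for IGFBP3 (interval from -0.84 to 0.68).

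MUCL1, the gene with the largest line difference, had lower treated means in all 3 lines, none past the threshold. In MDA-MB-231 it measured 9.26, 9.57 and 9.47 in control arrays and 9.39, 9.13 and 8.92 in treated arrays, 1.22-fold lower on average with overlap (limma adjusted p = 0.502). In MDA-MB-468 the values were 6.49, 6.64 and 6.39 against 6.29, 6.46 and 6.07, and in SKBR3 4.53, 4.50 and 4.32 against 4.30, 4.50 and 4.24. The intervals ran from -0.38 to 0.17 log2 in SKBR3, from -0.56 to -0.01 in MDA-MB-231 and from -0.51 to 0.04 in MDA-MB-468. The bound farthest from 0, -0.56 log2, compares with the 2.67 log2 between MDA-MB-231 and MDA-MB-468 in treated arrays.

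SRGN had higher treated means in all 3 lines, again with no adjusted p under 0.05. In SKBR3 it measured 4.13, 3.72 and 4.02 in control arrays and 4.43, 4.27 and 4.19 in treated arrays, which did not overlap (0.34 log2, interval from -0.02 to 0.70, limma adjusted p = 0.569). In MDA-MB-231 it measured 7.07, 7.04 and 6.77 against 6.90, 7.21 and 7.45, and in MDA-MB-468 4.29, 4.62 and 4.39 against 5.07, 4.58 and 4.53. Groups overlapped in both of these lines, and the differences were 0.23 and 0.29 log2. Of the 18 leukocyte markers listed above 5 were tested. Their median differences were 0.19, 0.10 and 0.11 log2 in SKBR3 (anti-LINC01269), MDA-MB-231 and MDA-MB-468 (both anti-AL078604.2). The medians of all features were 0.01, 0.01 and -0.00 log2. In each line 4 of the 5 markers lay above 0, with 0 past the threshold. Their part in the SRGN values was not tested.

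LCP1 and BIN2 differed by at most 0.17 log2 with an ASO in any line. LCP1 measured 5.05, 4.92 and 5.01 against 5.08, 5.11 and 4.99 in SKBR3, 8.47, 8.47 and 8.26 against 8.38, 8.62 and 8.64 in MDA-MB-231, and 6.72, 7.28 and 6.67 against 7.17, 7.01 and 6.80 in MDA-MB-468. BIN2 measured 5.95, 5.78 and 5.82 against 5.67, 6.15 and 6.04, then 9.27, 9.20 and 9.06 against 9.21, 9.37 and 9.47, then 8.08, 7.86 and 7.97 against 7.90, 7.93 and 8.0 in the same lines. All groups overlapped, with differences of 0.07, 0.15 and 0.11 log2 for LCP1 and 0.11, 0.17 and -0.03 log2 for BIN2. The intervals excluded a change of 0.5 log2 for both genes in every line, the farthest bound being 0.44 log2 (LCP1 in MDA-MB-231).

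**Figure D3:**
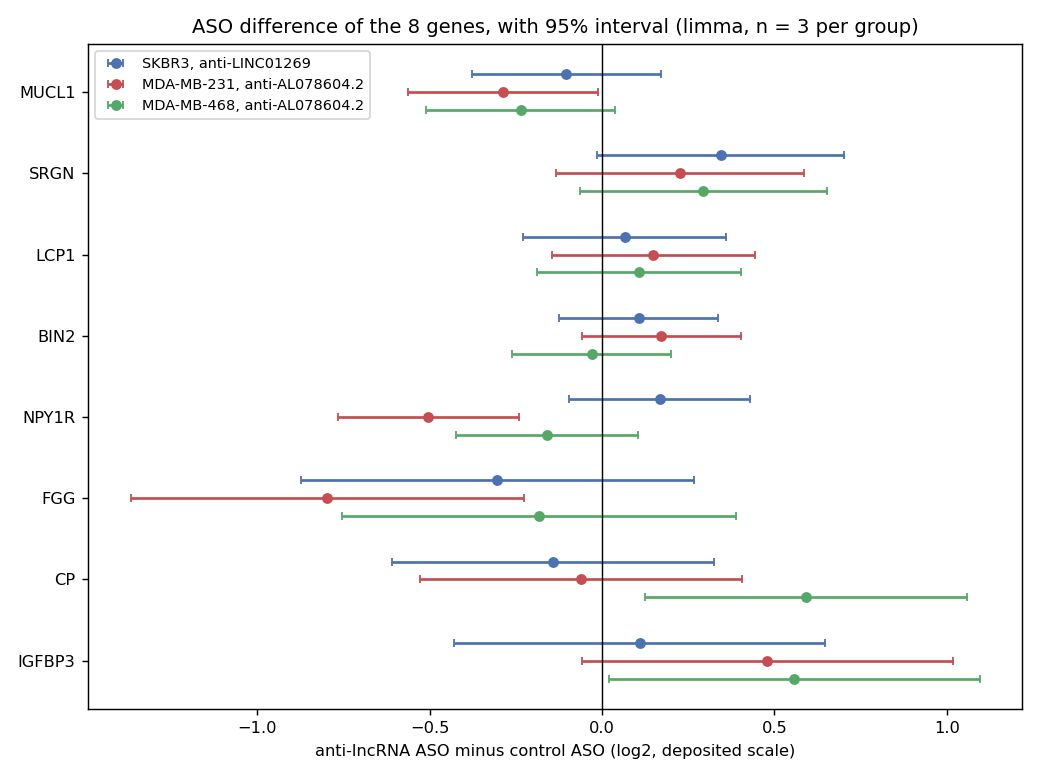
Difference between anti-lncRNA and control ASO arrays for each gene in each line (x axis, deposited log2 scale), with points for the estimates of limma's model and bars for 95% intervals, n = 3 arrays per group. Most bars cross 0; those of NPY1R, FGG and MUCL1 in MDA-MB-231 and of CP and IGFBP3 in MDA-MB-468 do not, and none of the 24 estimates has an adjusted p under 0.05.

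Genes related to the 8 were described from 8 lists chosen by family or function, 117 genes in all, of which 79 had a named feature and 60 were tested. None of the 60 passed the threshold, higher or lower, in any ASO comparison or in the difference of responses. Between MDA-MB-231 and MDA-MB-468 in the anti-AL078604.2 arrays, 14 of the 60 were higher in MDA-MB-231 and 12 lower by limma's test, against 15.8% and 14.9% of all features. In the control arrays 12 of the 79 had a range between lines of 1 log2 or more. All 8 chosen genes exceed that level by choice. The share of all named features at that level was not worked out, so the count is a description only.

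The insulin-like growth factor axis around IGFBP3 had 11 tested genes. Of these, 3 were higher and 3 lower in MDA-MB-231 than in MDA-MB-468 (15.8% and 14.9% of all features). IGFBP7, which encodes a low-affinity relative of IGFBP3, was lowest in MDA-MB-468, where IGFBP3 was highest, with control means of 7.64, 7.24 and 5.97 log2 in SKBR3, MDA-MB-231 and MDA-MB-468 and a difference of 1.25 log2 between the latter lines in anti-AL078604.2 arrays (limma adjusted p = 4.18e-07). STC1, whose product inhibits the protease that cleaves binding proteins, had the same order as IGFBP3, with 10.06, 9.74 and 10.96, and a difference of -1.84 log2 (limma adjusted p = 1.73e-05). IGF1R, the receptor, had control means of 6.83, 5.82 and 6.32. The median ASO differences of the list were -0.01, 0.06 and 0.12 log2 in SKBR3, MDA-MB-231 and MDA-MB-468, against 0.01, 0.01 and -0.00 log2 for all features.

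Around FGG and CP, 8 of 21 fibrinogen and acute phase genes were tested. Of the 8, 3 were higher and 2 lower in MDA-MB-231 than in MDA-MB-468 (15.8% and 14.9% of all features). The other fibrinogen chains were highest in SKBR3 as FGG was: FGA had control means of 5.10, 3.78 and 3.74 and FGB 4.92, 4.25 and 4.31 in SKBR3, MDA-MB-231 and MDA-MB-468. Both lay near or below the median feature, and FGB did not pass the filter. TF, the iron carrier transferrin, was highest in MDA-MB-468 as CP was, at 6.64, 7.22 and 8.81, with a difference of -2.24 log2 between MDA-MB-231 and MDA-MB-468 in anti-AL078604.2 arrays (limma adjusted p = 3.3e-06). ORM1, an acute phase glycoprotein gene that did not pass the filter, had 3.98, 3.83 and 2.87. Among 5 tested genes of iron and copper handling, HEPH, the membrane-bound relative of CP, ranged over 0.45 log2. HAMP (the iron hormone hepcidin) ranged over 0.42 and the copper chaperone gene ATOX1 over 0.38. The list medians of the ASO differences lay between -0.06 and 0.12 log2 in the 3 lines.

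The paralogs of LCP1 and BIN2 had narrower ranges between the control means than these genes. LCP1 and BIN2 were chosen for wide ranges in those same arrays, so this is a description only. The other plastin genes PLS1 (9.04, 8.87 and 9.38 in SKBR3, MDA-MB-231 and MDA-MB-468) and PLS3 (10.90, 10.80 and 11.11) were lowest in MDA-MB-231, where LCP1 was highest. In the anti-AL078604.2 arrays 4 of the 5 tested genes for actin bundling were lower in MDA-MB-231 than in MDA-MB-468 and 0 higher. Over all features the shares were 14.9% lower and 15.8% higher. EPS8, another actin-binding protein gene, ranged over 0.41 log2. BIN1 and BIN3, the paralogs of BIN2, ranged over 0.29 and 0.06 log2, against 2.57 log2 for BIN2. Of the 9 tested BAR domain genes 3 were higher in MDA-MB-231 than in MDA-MB-468 and 0 lower, beside the same shares over all features. PACSIN3 had control means of 7.23, 7.91 and 7.75, and AMPH (3.50, 4.55 and 4.50) and SH3GL2 (2.67, 3.19 and 2.70) did not pass the filter.

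The other neuropeptide Y receptors had smaller ranges than NPY1R, a description only, since NPY1R was chosen for its wide range. NPY2R had control means of 3.97, 4.61 and 4.93 and NPY5R, which did not pass the filter, 3.20, 4.30 and 3.69 in SKBR3, MDA-MB-231 and MDA-MB-468. NPY1R, NPY2R and NPY5R were lowest in SKBR3, whereas NPY4R ranged over 0.07 log2. DPP4, the peptidase that trims neuropeptide Y, was expressed well above the median at 8.56, 9.29 and 9.0 log2. Of the 4 tested genes of this list 1 was lower and 0 were higher in MDA-MB-231 than in MDA-MB-468 (14.9% and 15.8% of all features).

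Of 8 tested genes for secreted proteins of breast and glands, listed beside MUCL1, 1 was higher and 1 lower in MDA-MB-231 than in MDA-MB-468. Over all features the shares were 15.8% and 14.9%. The widest range between control means among the 10 named genes was 1.15 log2: SLPI, a protease inhibitor gene, had means of 10.44, 11.04 and 11.59, PIP, the gene of a prolactin-induced secreted protein, 5.45, 5.14 and 4.44, and AGR2, whose product folds mucins, 6.17, 5.17 and 5.29 in SKBR3, MDA-MB-231 and MDA-MB-468. Of 10 tested proteoglycan genes, listed beside SRGN, 3 were higher and 1 lower, beside the same shares. GPC6, a glypican gene, had means of 7.58, 7.85 and 8.41 and an ASO difference of -0.74 log2 in MDA-MB-231 that did not pass (limma adjusted p = 0.0828), GPC4 had 6.31, 6.10 and 5.64, and LUM, the lumican gene, was low in all lines (4.15, 3.03 and 3.02) and did not pass the filter.

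**Figure D4:**
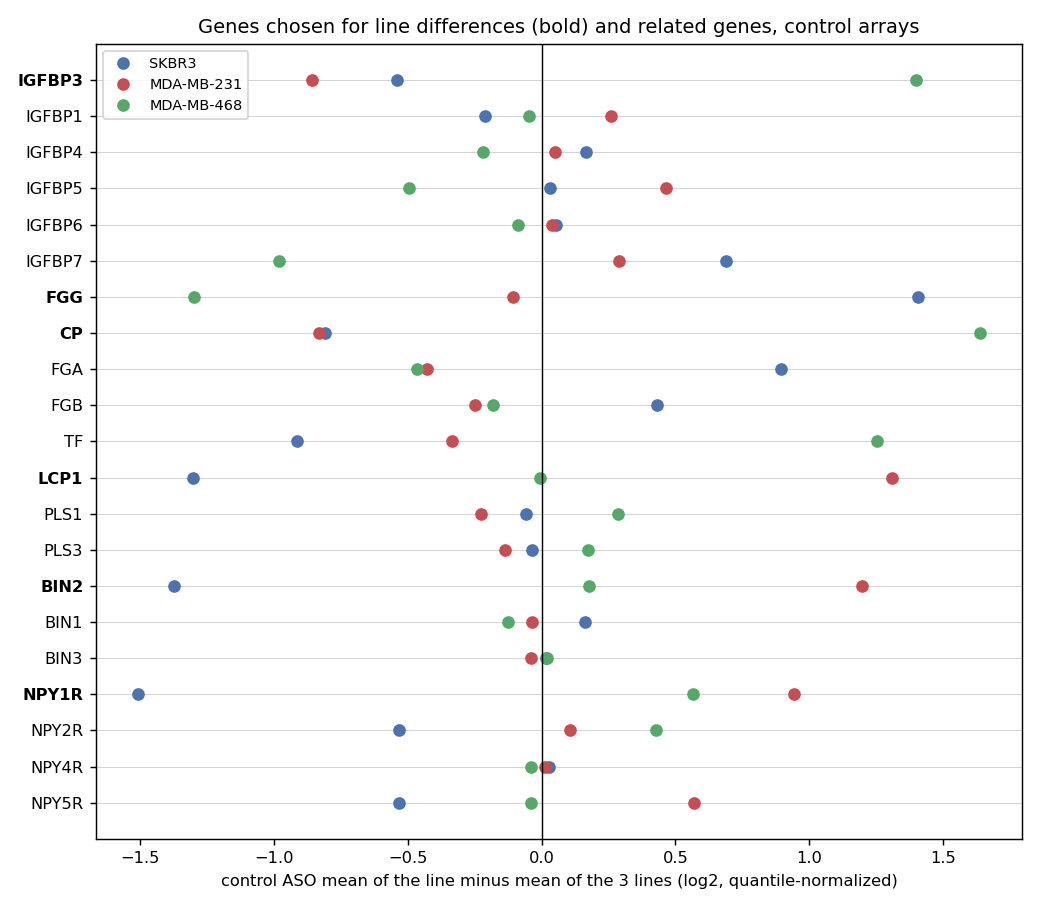
Control-array mean of each line minus the mean of the 3 lines (x axis, quantile-normalized log2) for 6 of the chosen genes, in bold, and related genes of their families. IGFBP7 is lowest in MDA-MB-468, where IGFBP3 is highest, FGA and FGB share the highest line of FGG, and TF that of CP. BIN1, BIN3, PLS1 and PLS3 have narrower ranges than BIN2 and LCP1, which were chosen for wide ranges.

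The genes whose levels were most like those of the 8 were found by Pearson's r over the 18 quantile-normalized arrays among 691 named genes with a range of at least 1 log2 between group means. These coefficients are a description: the 18 arrays fall into 3 lines and are not independent points. Some of the 8 were near neighbours of each other: LCP1 was among the 3 most like BIN2 (0.982, beside TFPT at 0.984 and CDKN2AIPNL at 0.980), and CP among the 3 most like IGFBP3 (0.964, beside IFNGR2 at 0.991 and KDM3A at 0.958). For LCP1 itself TFPT was closest (0.991), then TMEM216 (0.985) and MRPL51 (0.983). MUCL1 was most like KLK6 (0.985), SMAGP (0.984) and ELOF1 (0.971), and SRGN most like RPS2P32 (0.978), STAC (0.966) and CD99P1 (0.956). NPY1R was most like NDFIP1 (0.979), OLA1 (0.973) and EXOSC8 (0.971). FGG was most like NMNAT2 (0.974), RTN3 (0.947) and CLCA2 (0.944), the lowest coefficients of the 8. CP was most like TET1 (0.980), ACSL4 (0.979) and LY75-CD302 (0.975).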

How the data were processed

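Per the labels' protocols, cells were lysed in TRIzol, and RNA went through PureLink purification and WT PLUS labelling onto 18 arrays. Per the submitters' processing notes, the authors used Transcriptome Analysis Console on the scans; version, genome build, summarization and normalization are not given in the sources used here. What the authors deposited (0.41 to 13.84) was read as log2 expression from the range of values, since no header or label names a scale. Array medians differed between the lines, and the cause was not tested. An array counts no molecules, so the number of arrays limits precision.

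GEO's platform annotation gave 1 symbol to 16098 of 53617 features; all 16098 gene IDs matched a RefSeq table (GRCh38.p14). Tests used R 4.3.3 and limma 3.58.1: a group-means model over all 18 arrays (12 residual and 4.33 prior degrees of freedom), eBayes with an intensity trend, two-sided p-values and Benjamini-Hochberg adjustment over 29855 features (those with a mean above the median feature in 1 or more of the 6 groups), threshold 0.05. ASO comparisons used the deposited values. Line differences, tested in anti-lncRNA arrays only, and levels between lines used quantile normalization of all 18 arrays. The procedure was tested on simulated data.

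The 8 genes and all gene lists were chosen with earlier results of these data known. Of each list, genes past the threshold in an ASO comparison or else up to 3 with the largest range between lines were named, and BIN1, BIN3, FGB, CD68 and the genes of the marker paragraph were named beside them. For likeness, the 3 genes with the highest r were named. Alternatives were another filter, no trend, other normalizations, only the groups compared, the replicate number as a block and leaving out each array. No array duplicated another.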

Additional observations from a re-analysis of the deposited data

How the results depend on the processing

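Of the members' ASO differences (difference of responses included) under 6 alternatives other than leaving out an array, 188 of 188 kept their direction and their side of the threshold, and of the line differences under 7 alternatives 160 did and 5 did not; NPY1R had no value under the stricter filter, which it did not pass. The exceptions were the IGFBP3 difference of SKBR3 minus MDA-MB-231, which turned to 0.044 log2 with array medians subtracted, and, with values as deposited, SRGN in SKBR3 minus MDA-MB-468 (-0.43 log2, limma adjusted p = 0.0305), FGG in MDA-MB-231 minus MDA-MB-468 (0.74), and CP (-0.88) and IGFBP3 (-0.77) in SKBR3 minus MDA-MB-231. Features called in MDA-MB-231 (51) numbered 28 with no filter, 99 with a stricter filter, 26 with no trend, 3 with only the groups compared and 0 with the replicate block. Those in MDA-MB-468 (2) numbered 1 with the stricter filter and 0 with only the groups compared or the replicate block, and those in SKBR3 (0) numbered 1 with no filter. Line calls numbered 26678 (SKBR3 minus MDA-MB-231) and 23224 (SKBR3 minus MDA-MB-468) with values as deposited and 7570 (SKBR3 minus MDA-MB-468) with only the groups compared. Deviations of same-numbered arrays from their group means correlated at -0.12 to 0.10. With 3 arrays per group this cannot exclude a pairing by replicate number. The block changed no member's call.

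Leaving out 1 array at a time gave 0 to 232 called features in SKBR3 (232 without the second anti-LINC01269 array), 0 to 535 in MDA-MB-231 (535 without the first anti-AL078604.2 array), 0 to 12 in MDA-MB-468 (12 without the third anti-AL078604.2 array), 0 for the difference of responses, and 6791 to 9423, 7717 to 9034 and 9490 to 11025 for MDA-MB-231 minus MDA-MB-468, SKBR3 minus MDA-MB-231 and SKBR3 minus MDA-MB-468. Members called, counted over all 8 genes with SRGN included, ranged from 0 to 1 in MDA-MB-231 (NPY1R), from 6 to 7 in MDA-MB-231 minus MDA-MB-468 (FGG, 0.27 to 0.92 log2), and stayed at 0 in SKBR3 and MDA-MB-468, 6 in SKBR3 minus MDA-MB-231 and 7 in SKBR3 minus MDA-MB-468. Small differences changed sign: BIN2 (-0.085 to 0.025), FGG (-0.53 to 0.094) and LCP1 (-0.0023 to 0.30) in MDA-MB-468; CP in MDA-MB-231 (-0.16 to 0.0096) and SKBR3 (-0.43 to 0.15); IGFBP3 in SKBR3 (-0.077 to 0.24); CP (-0.34 to 0.23) and IGFBP3 (-0.22 to 0.083) in SKBR3 minus MDA-MB-231; NPY1R in MDA-MB-231 minus MDA-MB-468 (-0.069 to 0.12); and the difference of responses of IGFBP3 (-0.40 to 0.21), LCP1 (-0.15 to 0.15), MUCL1 (-0.17 to 0.060) and SRGN (-0.20 to 0.10). The causes were not tested. Averaging all features of a symbol changed nothing, since each gene has 1 feature.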

Other observations

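Named features outside the 8 genes, chosen after their values were seen, had line ranges as large in the control arrays. The microRNA gene MIR130B had control means of 10.56 log2 in SKBR3, 6.99 in MDA-MB-231 and 6.84 in MDA-MB-468 on the quantile-normalized scale, SERF2 11.37, 7.87 and 7.87, and MIR185 9.91, 7.68 and 7.53, all highest in SKBR3. LINC02864, a long non-coding RNA gene, had 6.83, 4.27 and 3.64, and MIR199A1 ran the other way with 3.03, 5.62 and 5.42. In the anti-lncRNA arrays, where line and ASO cannot be told apart, SKBR3 minus MDA-MB-231 was 4.16, 3.15, 2.39, 1.62 and -2.30 log2 for MIR130B, SERF2, MIR185, LINC02864 and MIR199A1, with limma adjusted p between 4.49e-11 and 1.71e-05. None passed in an ASO comparison, where LINC02864 in SKBR3 had the largest difference of these 5 (-0.77 log2, limma adjusted p = 0.332).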
